A study of Mus musculus with 12 samples.

Results

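Synaptic adhesion and axon guidance genes were followed in the mouse hippocampus across loss of the transcription factors CREB and CREM and across a seizure-inducing stimulus. The members are the probe sets whose single gene symbol on the platform begins with Pcdh, Cdh and a digit, Cntn, Nrxn, Nlgn, Lrrtm, Lrrn, Slitrk, Sema, Plxn, Epha, Ephb, Robo, or Slit and a digit. The rule found 43 genes of the 5928 genes named on the array, read by 54 of its 11868 probe sets, the control probe sets aside. No Ephb gene was among them. Probe sets with a log2 value of 4 or more on 3 or more arrays were tested, which left 28 members for 24 genes, out of 3541 probe sets in all.

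Each array is array C of the Affymetrix murine U74 set and holds labelled cRNA from the pooled hippocampal RNA of 3 animals. There were 4 groups of 3 arrays: mutant mice given kainate, mutant mice given saline, control mice given kainate and control mice given saline. Kainate, an agonist of ionotropic glutamate receptors that provokes seizures, was injected intraperitoneally at 20 mg/kg, and all mice were killed 1 h after their injection. The mice were littermates of both sexes aged 5 to 6 weeks, caged alone and handled for 5 days beforehand. The series title says the mutants lack CREB and CREM. The labels do not describe the alleles, the cells that lost them, or the genotype of the control mice beyond that word. All values are on the log2 scale, a difference of 1 is a doubling, and a level of 1 probe set cannot be set against that of another. Because the RNA came from whole tissue, fewer cells of a type and less RNA per cell cannot be told apart.

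Axon guidance works through secreted or membrane-bound cues, among them semaphorins and Slit proteins, that are read by receptors on the growth cone such as plexins, Robo proteins and Eph receptor tyrosine kinases. In the mature hippocampus many of these proteins act at synapses, where presynaptic neurexins bind postsynaptic neuroligins and LRRTM proteins, and where Slitrk proteins bind presynaptic receptor phosphatases. Cadherins and protocadherins are calcium-dependent adhesion proteins that join cells carrying like molecules. CREB and CREM are related factors that bind the cyclic AMP response element and take part in transcription after neuronal activity.

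The arrays were close in their bulk, with medians of 3.26 to 3.41 and 26.7 to 30.0% of probe sets at log2 4 or more. The medians of the saline arrays did not overlap by genotype, at 3.32 to 3.37 in mutants and 3.26 to 3.28 in controls. Among all arrays, 1 stood apart. The array of mutant kainate replicate 3 had the lowest SD over all probe sets, 1.52 against 1.71 to 1.78 on the others, and its correlation with any other array did not exceed 0.960, against up to 0.998 for other pairs. Some probe sets also separated the replicate 1 arrays from replicates 2 and 3 in all 4 groups. The array labelled control kainate replicate 3 was doubted from earlier results of these data. It was set against the others on the 1200 tested probe sets, members aside, whose saline groups did not overlap by genotype, as the mean distance from the midpoint of those groups toward the mutant side. The mutant kainate arrays stood at -0.021, 0.067 and 0.210 (log2), against -0.037, -0.099 and -0.028 for the control kainate arrays in replicate order. By this measure control kainate replicate 3 was the highest control kainate array but on the control side. Mutant kainate replicate 1 lay on that side too, so the side cannot decide the genotype of a kainate array. Of the 1200 probe sets, 1023 were higher in mutant saline and 177 lower, so the measure also moves with the level of a whole array. Mutant kainate replicate 3 had both the highest value by this measure and the highest median, 3.41. Results are therefore given with all arrays and, where it matters, without mutant kainate replicate 3 or without these 2 arrays and with replicate 1 against 2 and 3 as a block. Creb1 and Crem, the targeted genes, were each read by 1 probe set above the filter, which gave 4.77 to 5.11 and 4.37 to 4.83 over the 12 arrays with no lower level in mutants. Whether those probes lie in the removed part of either gene is not known here, so these levels check nothing. The label of the tissue could be checked only thinly, since the CA1 and CA3 list had 1 gene above the filter (Cpne7) and the dentate gyrus list 0. Of 12 listed genes of neighbouring brain regions, 4 were on the array and 2 above the filter. These were Slc17a6, at 7.16 to 8.58, and Rorb, at 5.83 to 7.86. For genotype averaged over treatments Slc17a6 differed by -0.53 (adjusted p = 0.247, limma) and Rorb by -0.18 (adjusted p = 0.721). Carry-over of tissue from those regions was not tested.

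No member passed the threshold of adjusted p under 0.05 in any of the 7 comparisons made with limma over all 3541 probe sets. The lowest adjusted p of a member was 1 for kainate in control mice (0 of 28 called, background 0.0282%), 0.579 for kainate in mutant mice (0 of 28, background 0.0282%) and 0.349 for kainate averaged over the genotypes (0 of 28, background 0.141%). It was 0.385 for genotype after saline, 0.550 for genotype after kainate, 0.247 for genotype averaged over treatments and 0.973 for the interaction, each with 0 of 28 members called and a background of 0%. At an unadjusted p under 0.05 the members numbered 0 for kainate in control mice (background 4.46%), 2 for kainate in mutant mice (8.47%) and 2 for kainate averaged over genotypes (11.3%). For genotype they numbered 1 after saline (12.1%), 2 after kainate (4.72%) and 6 averaged over treatments (19.1%), and for the interaction 0 (0.875%). The 6 of 28 members for the averaged genotype comparison are close in share to their background, and the other counts are too small to be read against theirs. The number of arrays limits the precision: the median standard error of a member's difference was 0.31 for 3 arrays against 3 and 0.22 for 6 against 6. The 95% interval of the difference lay within a doubling or halving for 22 of the 28 members for kainate averaged over genotypes and for 18 of 28 for genotype averaged over treatments. For the remaining members the interval reached past that size.

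**Figure D1:**
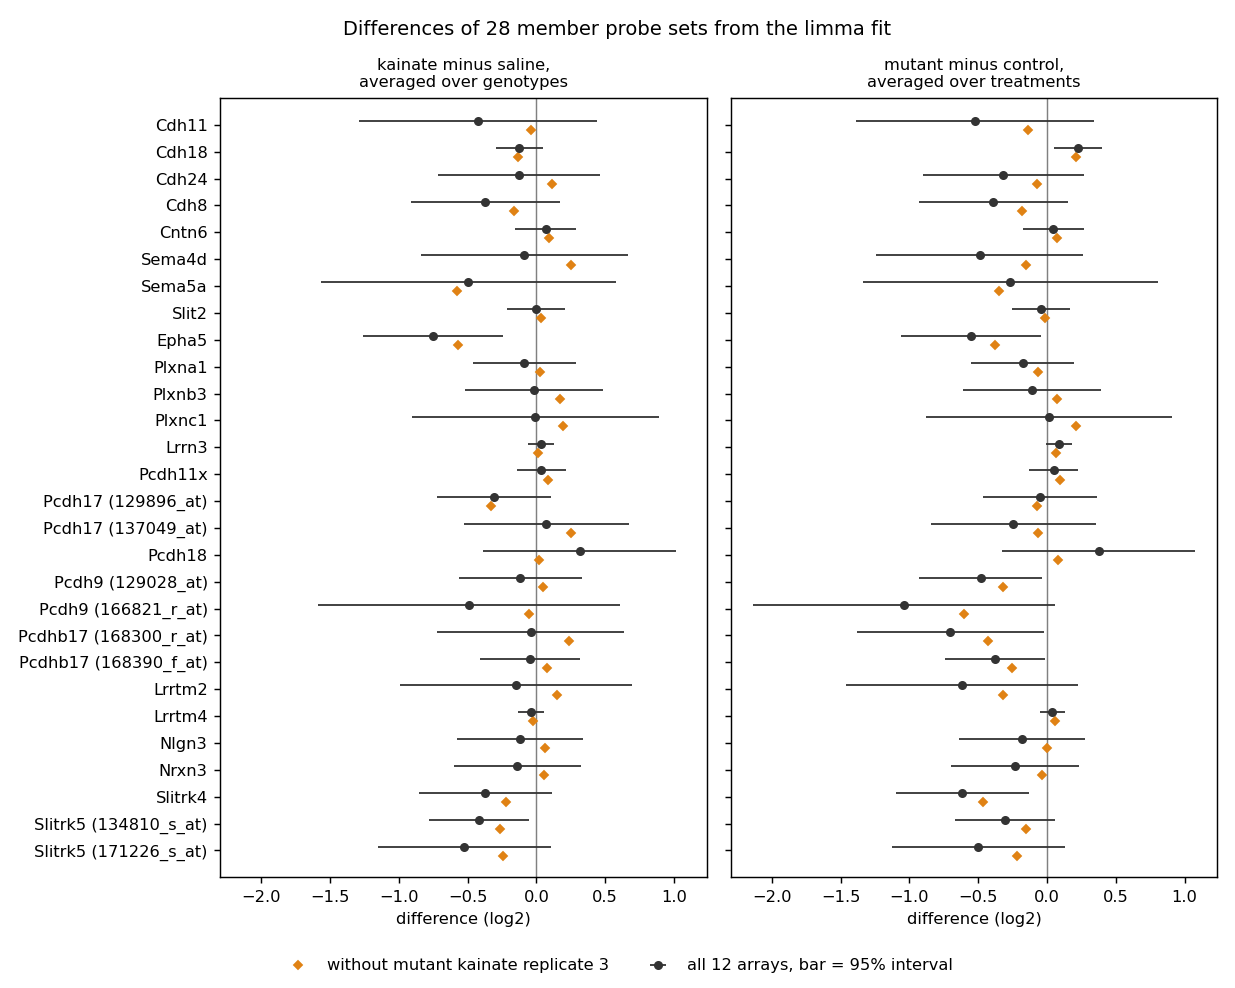
Differences of the 28 tested member probe sets (log2, limma fit) for kainate minus saline averaged over genotypes on the left and for mutant minus control averaged over treatments on the right. Dots with bars are values with their 95% intervals from all 12 arrays, and diamonds are values without mutant kainate replicate 3. On both sides most dots lie below 0, and on the left the diamonds of 17 of 28 members lie above 0.

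Much of the spread among the members lay in 1 array. Mutant kainate replicate 3 gave the lowest of the 12 values on 21 of 28 members, where 38.9% of all tested probe sets had their lowest value on it, and the highest value on 2 members (background 14.2%). On the 15 members that averaged log2 6 or more over the other 11 arrays, its value minus the mean of replicates 1 and 2 of its group had a median of -1.18, with 14 of the 15 lower. On the 1159 tested probe sets of that level the median was -0.98, with 1019 lower. On the 13 members below log2 6 the median was -0.18, against 0.07 over 2382 probe sets. Bright probe sets of the whole array thus read low there along with the bright members.

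The steepest deficits on that array were those of Pcdh9 by its probe set 166821_r_at, at 4.02 against 6.77 and 6.49 on replicates 1 and 2, and Cdh11, at 4.34 against 6.97 and 6.36. Sema4d stood at 6.54 against 8.69 and 8.45. A few members went against this. Pcdh18, a protocadherin, read 6.12 there and 3.98 to 4.72 on the other 11 arrays. Sema5a read 6.96, between the other mutant kainate arrays at 5.44 and 7.45. The dim second probe set of Pcdh11x and that of Epha4 also exceeded log2 4 on this array alone, at 5.02 and 5.29, against at most 3.20 and 3.91 on the other 11.

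**Figure D2:**
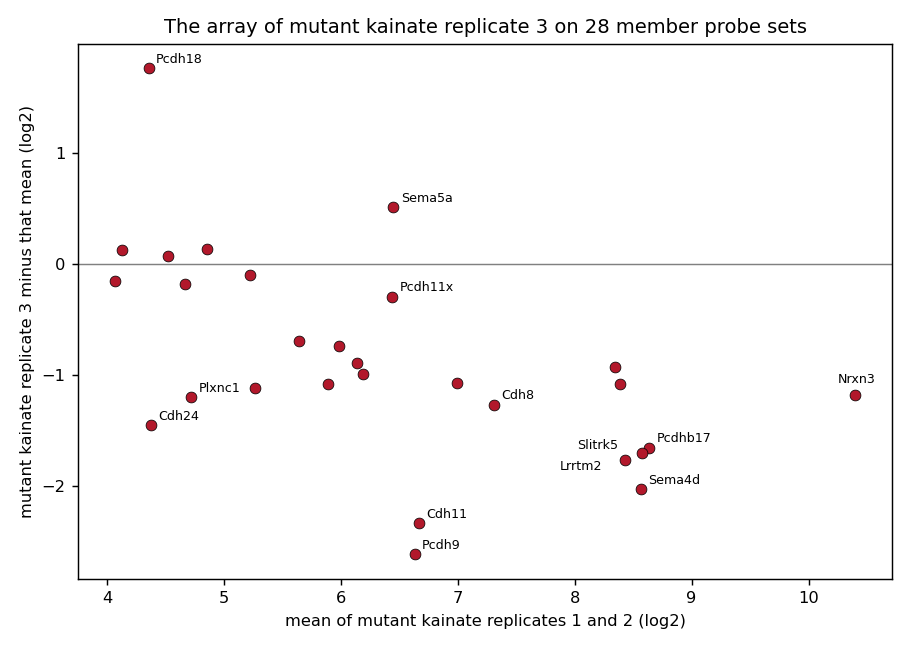
Value on mutant kainate replicate 3 minus the mean of mutant kainate replicates 1 and 2 (vertical, log2) against that mean (horizontal, log2), 1 point for each of the 28 tested member probe sets. Most points lie below 0, and the lowest lie at means above 6, with Pcdh9 (166821_r_at) at -2.61 and Pcdh18 alone far above 0 at 1.76.

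**Figure D3:**
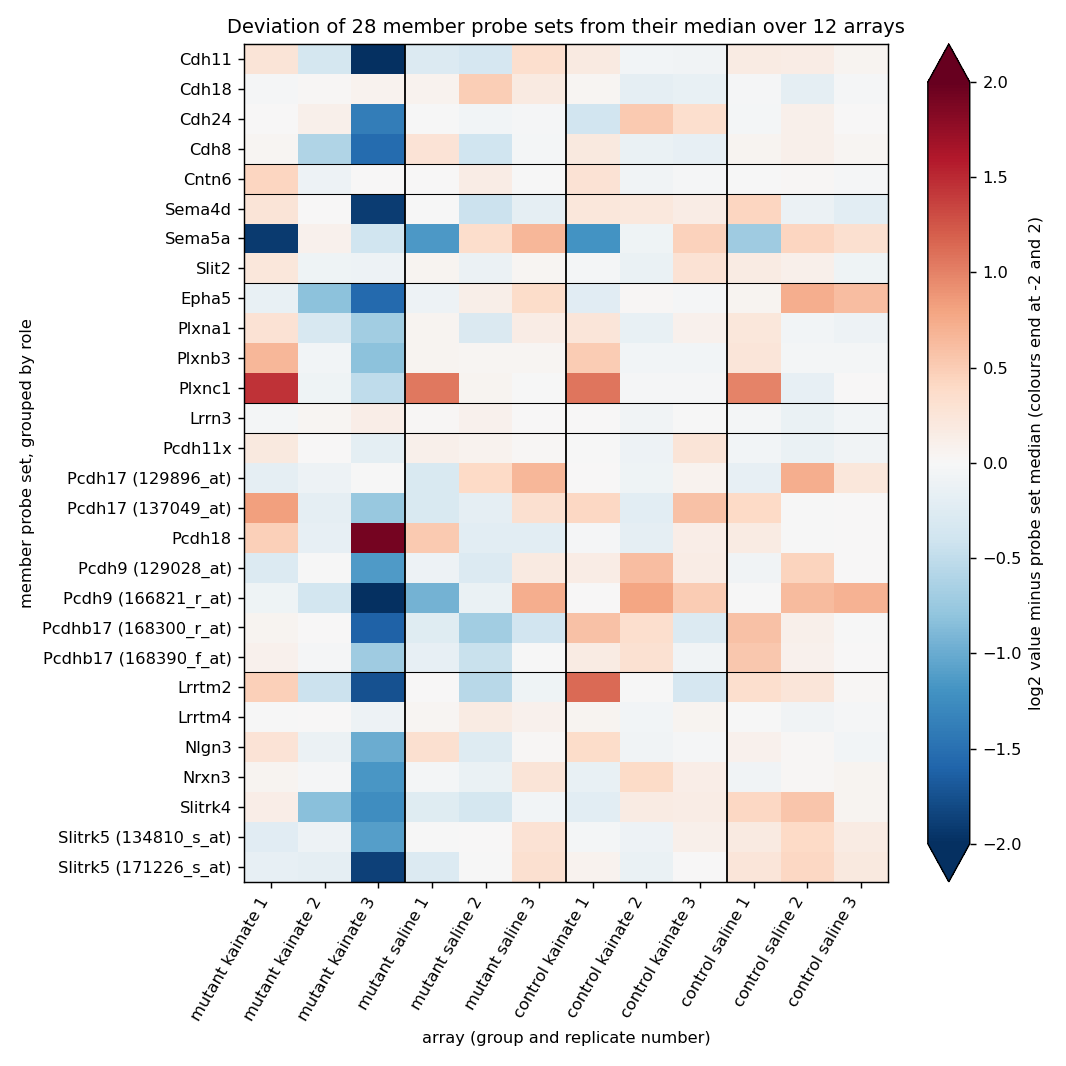
Each row is a tested member probe set, grouped by role, and each column an array; colour is the log2 value minus that probe set's median over the 12 arrays. The column of mutant kainate replicate 3 is low on most rows, and Plxnc1 and Sema5a differ between replicate 1 and the other replicates in every group.

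The median difference of the 28 members followed that array in the comparisons that share it. For kainate in mutant mice it was -0.32 with 23 members negative, where the median over all probe sets was -0.08 and 73.5% were negative. Without mutant kainate replicate 3 it was 0.03 with 13 members negative (all probe sets -0.05). Without any other single array it stayed between -0.50 and -0.24. For genotype after kainate the median was -0.42 with 24 negative (all probe sets -0.03, 53.5% negative), and -0.08 with 19 negative once the array was left out (all probe sets 0.02). For the interaction the median was -0.23 with 25 negative (all probe sets -0.09, 73.5% negative), and -0.01 with 14 negative once it was left out (all probe sets -0.04). Normalizing the arrays once more by quantiles gave member medians of -0.10, -0.15 and -0.12 for these comparisons, with medians over all probe sets of 0.01, 0.04 and 0.00. Kainate in control mice and genotype after saline do not involve that array in their group means. Their member medians were 0.02 (14 negative, all probe sets 0.01, 46.9% negative) and -0.06 (20 negative, all probe sets 0.04, 41.3% negative).

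Among the guidance receptors, Epha5 gave the lowest p of any member for kainate. Epha5 encodes a receptor tyrosine kinase for membrane-anchored ephrin-A ligands. It read 7.33, 6.65 and 5.92 on the mutant kainate arrays, against 7.37, 7.59 and 7.84 on the mutant saline arrays. In control mice it read 7.25, 7.51 and 7.44 after kainate, against 7.53, 8.21 and 8.09 after saline. In each genotype all 3 kainate arrays lay below all 3 saline arrays. The difference was -0.97 ± 0.32 (SE) in mutants (adjusted p = 0.579), -0.54 ± 0.32 in controls (adjusted p = 1) and -0.75 ± 0.23 averaged over the genotypes (adjusted p = 0.349, 95% interval -1.26 to -0.24), 40.7% lower after kainate. Without mutant kainate replicate 3 the difference in mutants was -0.61 ± 0.25 and the averaged one -0.57 ± 0.17 (adjusted p = 0.299). The averaged difference was -1.05 among replicates 2 and 3 and -0.16 in replicate 1. Leaving out mutant kainate replicate 1, the array of that group on which Epha5 was highest, gave -1.32 ± 0.26 in mutants (adjusted p = 0.0492) and -0.93 ± 0.18 averaged (adjusted p = 0.0490). No other member was called in any of the 20 alternative fits, and Epha5 itself was called in that fit alone. Between the genotypes Epha5 differed by -0.77 ± 0.32 after kainate (adjusted p = 0.550) and by -0.55 ± 0.23 averaged over treatments (adjusted p = 0.255), and by -0.41 and -0.37 without mutant kainate replicate 3.

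The promoter of Epha5 is shown because this member gave the lowest p for kainate, and those of Cdh8, Pcdh9 and Sema5a because they hold the half-site of the cyclic AMP response element, the sequence bound by CREB and CREM. The sequences are RefSeq windows of 300 bases on GRCm38.p6, from 250 bases before to 50 after a start site, written on the gene's strand. They lie at chr5:84417333-84417632 (minus strand) for Epha5, chr8:99416422-99416721 (minus) for Cdh8, chr14:93890630-93890929 (minus) for Pcdh9 and chr15:32244563-32244862 (plus) for Sema5a. Capitals mark the half-site TGACG or its reverse complement CGTCA.

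Epha5: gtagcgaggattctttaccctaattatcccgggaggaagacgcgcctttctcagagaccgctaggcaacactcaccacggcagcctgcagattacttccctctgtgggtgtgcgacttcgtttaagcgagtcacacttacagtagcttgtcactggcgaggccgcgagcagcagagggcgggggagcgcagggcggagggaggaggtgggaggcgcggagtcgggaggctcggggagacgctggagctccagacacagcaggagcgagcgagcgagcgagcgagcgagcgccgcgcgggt

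Cdh8: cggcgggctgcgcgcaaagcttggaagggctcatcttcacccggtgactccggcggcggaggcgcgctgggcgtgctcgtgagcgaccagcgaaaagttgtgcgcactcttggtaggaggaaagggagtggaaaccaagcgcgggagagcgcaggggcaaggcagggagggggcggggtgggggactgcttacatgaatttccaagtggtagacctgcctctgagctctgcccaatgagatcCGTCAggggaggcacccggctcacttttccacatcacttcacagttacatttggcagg

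Pcdh9: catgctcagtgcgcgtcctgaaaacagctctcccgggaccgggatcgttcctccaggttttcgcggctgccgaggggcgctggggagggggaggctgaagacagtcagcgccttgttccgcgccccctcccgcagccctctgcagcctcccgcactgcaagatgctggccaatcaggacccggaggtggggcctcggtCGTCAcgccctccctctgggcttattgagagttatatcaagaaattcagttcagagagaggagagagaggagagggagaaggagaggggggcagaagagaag

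Sema5a: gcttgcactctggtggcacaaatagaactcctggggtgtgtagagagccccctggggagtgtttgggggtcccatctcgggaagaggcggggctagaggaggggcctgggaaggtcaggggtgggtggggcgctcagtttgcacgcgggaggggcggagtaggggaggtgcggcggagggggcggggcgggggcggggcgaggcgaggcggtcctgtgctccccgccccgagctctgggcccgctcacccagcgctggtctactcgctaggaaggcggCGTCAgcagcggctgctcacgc

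The half-site begins at -8 in Cdh8, at -52 in Pcdh9 and at 28 in Sema5a, counted from the start site as 0, and Epha5 has none in its window. The table of promoters held 43 windows for 30 of the 43 genes. The full element TGACGTCA, searched on both strands, was in 0 of the 43 windows and in 1.79% of all 32851 windows. The half-site, also on both strands and counted in full elements too, was in 9 of 43 windows (20.9%) and in 20.8% of all windows. Among the 16 genes above the filter that had a window, 4 held a half-site: Cdh8, Pcdh9, Sema5a and the contactin gene Cntn6. A match of letters describes the window and not a bound site.

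The plexins are receptors for semaphorins, and none passed in any comparison. Plxna1 averaged 5.41 ± 0.50 (SD, n = 3 arrays per group, here and below) in mutant kainate, 5.62 ± 0.24 in mutant saline, 5.71 ± 0.20 in control kainate and 5.68 ± 0.17 in control saline. Plxnb3 averaged 4.89 ± 0.74, 5.00 ± 0.01, 5.10 ± 0.33 and 5.02 ± 0.16 in the same order of groups. Plxnc1, the plexin that binds Sema7A, instead followed the replicate number. It read 5.49, 5.08, 5.10 and 5.03 on the 4 replicate 1 arrays and 3.52 to 4.09 on the 8 others, with no overlap and a gap of 1.23 between the means.

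The guidance ligands were Sema4d, Sema5a and Slit2. Sema5a, a transmembrane semaphorin, had the opposite replicate pattern to Plxnc1. Its replicate 1 values were 5.44 in mutant kainate, 6.21 in mutant saline, 6.17 in control kainate and 6.65 in control saline, and the 8 others ran from 6.96 to 8.03. The replicate 1 mean lay 1.47 below that of the others (a difference of -1.47). All 4 replicate 1 arrays lay above all others on 3 of 28 members (background 6.78%) and below all others on 1 of 28, Sema5a (background 2.29%). Besides Plxnc1 the members above were Plxnb3, at 5.01 to 5.62 against 4.14 to 5.00, and Nlgn3, at 8.40 to 8.67 against 7.31 to 8.33. Kainate minus saline for Sema5a averaged over the genotypes was -0.50 ± 0.48 (adjusted p = 0.757). That fit had no replicate block, so the error includes the gap between replicates. The difference was -0.63 in replicate 1 and -0.43 among replicates 2 and 3, both smaller than the gap between replicates. The summed log2 level of the 4 astrocyte markers above the filter (Gfap, Slc1a2, Pla2g7 and Apoe, of 7 on the array and 16 listed) was 24.2 to 25.5 on replicate 1 arrays and 25.8 to 30.0 on the others, also without overlap. That of the 2 oligodendrocyte markers (Olig1 and Ugt8a, of 4 on the array and 15 listed) was 19.3 to 19.9 and 16.4 to 19.9. Their part in the Sema5a and Plxnc1 patterns was not tested.

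Sema4d, a membrane semaphorin that signals through plexin-B receptors, averaged 7.89 ± 1.18 in mutant kainate, 8.23 ± 0.21 in mutant saline, 8.63 ± 0.04 in control kainate and 8.47 ± 0.34 in control saline. Slit2, a secreted ligand of Robo receptors, averaged 4.61 ± 0.19, 4.59 ± 0.10, 4.63 ± 0.22 and 4.65 ± 0.13 in these groups. All 12 Slit2 values lay between 4.46 and 4.89.

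**Figure D4:**
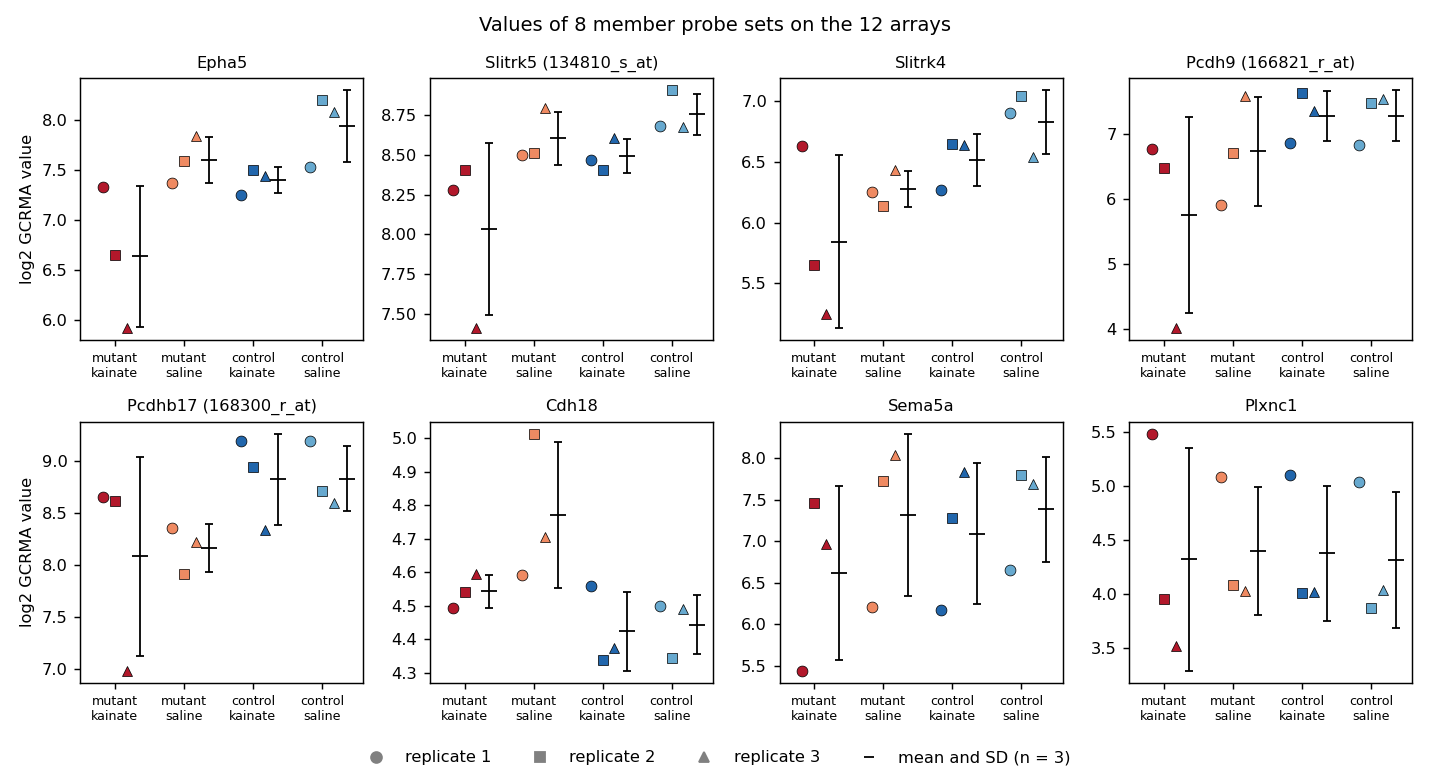
Log2 values of 8 member probe sets on the 12 arrays, with the groups from left to right mutant kainate, mutant saline, control kainate and control saline. Symbols show the replicate number, bars the mean and SD of 3 arrays, and each panel has its own vertical axis that does not start at 0. Epha5 is lower after kainate in each genotype, mutant kainate replicate 3 is the lowest Pcdh9 value at 4.02, and Sema5a and Plxnc1 part replicate 1 from the other replicates.

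The trans-synaptic organisers held 7 tested probe sets for 6 genes. Slitrk5, a leucine-rich repeat protein of the postsynaptic membrane, was read by a pair of probe sets that followed each other. On 134810_s_at it read 8.28, 8.41 and 7.41 in mutant kainate, against 8.50, 8.52 and 8.80 in mutant saline. On the same probe set control mice read 8.47, 8.40 and 8.61 after kainate, against 8.69, 8.91 and 8.68 after saline. The kainate arrays lay below the saline arrays of their genotype without overlap in both cases, and on 171226_s_at in control mice. The averaged kainate difference was -0.42 ± 0.16 on 134810_s_at (adjusted p = 0.384) and -0.53 ± 0.28 on 171226_s_at (adjusted p = 0.527). In control mice alone the differences were -0.26 ± 0.23 and -0.30 ± 0.39, and in mutants -0.57 ± 0.23 and -0.75 ± 0.39. Without mutant kainate replicate 3 the averaged values were -0.26 and -0.24, and those in mutants -0.26 and -0.18. Over the 12 arrays the 2 probe sets correlated at 0.974 and without that array at 0.887. They are annotated to 1 gene, so the correlation describes the probe sets.

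Groups without overlap were counted over all members for kainate. In control mice 3 members were lower after kainate on all 3 arrays (background 4.63%) and 0 higher (background 6.02%), and they were Epha5 and both probe sets of Slitrk5. In mutant mice 3 were lower (background 8.44%) and 0 higher (background 1.67%), namely Epha5, Slitrk5 by 134810_s_at, and Lrrtm4. Lrrtm4, a postsynaptic partner of neurexins and heparan sulphate proteoglycans, differed by -0.13 ± 0.06 in mutants (adjusted p = 0.579), with means of 5.19 ± 0.06 after kainate and 5.32 ± 0.06 after saline. Its sign turned after renewed quantile normalization, to 0.07. Over 6 arrays against 6 no member was without overlap in either direction (backgrounds 0.395% higher and 0.452% lower). The kainate comparisons in the genotypes share no arrays, but the averaged one contains both.

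Slitrk4, of the same family as Slitrk5, showed a difference by genotype that did not pass. It read 6.25, 6.14 and 6.44 in mutant saline, against 6.91, 7.04 and 6.54 in control saline, without overlap. After kainate it read 6.63, 5.65 and 5.25 in mutants, against 6.27, 6.65 and 6.64 in controls, with overlap. The genotype difference was -0.55 ± 0.31 after saline (adjusted p = 0.519) and -0.61 ± 0.22 averaged over treatments (adjusted p = 0.247, 95% interval -1.10 to -0.13). The averaged value was -0.15 in replicate 1, -0.85 among replicates 2 and 3, and -0.47 without mutant kainate replicate 3.

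Lrrtm2, a postsynaptic ligand of neurexins, read 8.42, 7.85 and 8.31 in mutant saline, against 8.74, 8.65 and 8.42 in control saline, with the highest mutant array just below the lowest control array beyond the printed digits. The difference was -0.41 ± 0.53 (adjusted p = 0.953). After kainate it was -0.82 ± 0.53 (adjusted p = 0.550), and -0.24 without mutant kainate replicate 3, with 8.88, 7.98 and 6.67 in mutants against 9.53, 8.39 and 8.07 in controls. Averaged over treatments it was -0.62 ± 0.37 (adjusted p = 0.372), and -0.32 without that array. Nrxn3, a presynaptic neurexin, averaged 10.01 ± 0.68 in mutant kainate, 10.41 ± 0.20 in mutant saline, 10.50 ± 0.27 in control kainate and 10.38 ± 0.07 in control saline. Its spread in mutant kainate came from replicate 3, at 9.22 against 10.44 and 10.36. Nlgn3, a neuroligin found at excitatory and inhibitory synapses, averaged 8.03 ± 0.65, 8.34 ± 0.29, 8.40 ± 0.24 and 8.33 ± 0.08 in the same order of groups. The second Nlgn3 probe set and the Nlgn2 probe set read at most 1.68 on every array and give no information on these genes.

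The protocadherins held 8 tested probe sets for 5 genes. Pcdhb17, a gene of the clustered beta protocadherins, was lower in mutant saline on both its probe sets, with no overlap and no call. On 168300_r_at it read 8.36, 7.91 and 8.22 in mutant saline, against 9.19, 8.71 and 8.60 in control saline, a difference of -0.67 ± 0.43 (adjusted p = 0.615). On 168390_f_at the difference was -0.41 ± 0.23 (adjusted p = 0.523). After kainate the groups overlapped, with 8.66, 8.62 and 6.98 in mutants against 9.19, 8.95 and 8.34 in controls on 168300_r_at. Averaged over treatments the differences were -0.70 ± 0.30 (adjusted p = 0.260) and -0.38 ± 0.16 (adjusted p = 0.260). On 168300_r_at the averaged difference was -0.68 in replicate 1 and -0.71 among replicates 2 and 3. Without mutant kainate replicate 3 it was -0.43, and with control kainate replicate 3 left out as well and replicate 1 against 2 and 3 as a block it was -0.55 (adjusted p = 0.0641), the lowest adjusted p of a genotype difference of a member in that fit. Beta protocadherins are related genes of 1 cluster, and the suffixes of these probe sets mark reduced or family designs, so the signal cannot be assigned to Pcdhb17 alone. The same suffixes stand on the tested probe sets of Sema4d, Pcdh18 and Cdh18 and on 166821_r_at of Pcdh9. Their signal may also not be that of the named gene alone. Other suffixes stand on both probe sets of Slitrk5 (s) and on the tested ones of Lrrtm4, Lrrn3 and Plxna1 (i). How far their signal is that of the named gene was not tested.

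Pcdh9, a non-clustered protocadherin, read 6.06, 6.32 and 5.20 in mutant kainate, against 6.48, 6.95 and 6.48 in control kainate on 129028_at, without overlap. The difference was -0.77 ± 0.28 (adjusted p = 0.550), and -0.44 without mutant kainate replicate 3. On 166821_r_at it was -1.53 ± 0.69 (adjusted p = 0.550), also without overlap, and -0.66 without that array. Averaged over treatments the genotype differences were -0.48 ± 0.20 (adjusted p = 0.257) and -1.04 ± 0.49 (adjusted p = 0.273), and -0.32 and -0.60 without it. Kainate minus saline in mutants was -0.98 ± 0.69 on 166821_r_at, with 0.87 in replicate 1, -1.90 among replicates 2 and 3, and -0.11 without that array. The interaction on the same probe set was -0.98 ± 0.97 (adjusted p = 0.973), and -0.11 without it. The remaining Pcdh9 probe set stayed between 3.43 and 3.64.

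Pcdh17, another non-clustered protocadherin, was read by a pair of probe sets that did not follow each other, with a correlation of 0.01 over 12 arrays. They averaged 4.90 ± 0.08 and 5.53 ± 0.80 in mutant kainate, 5.25 ± 0.50 and 5.52 ± 0.33 in mutant saline, 4.99 ± 0.08 and 5.83 ± 0.42 in control kainate and 5.26 ± 0.45 and 5.70 ± 0.23 in control saline. The corresponding correlations were 0.889 for Pcdh9 and 0.937 for Pcdhb17, and 0.660 and 0.892 without mutant kainate replicate 3. Pcdh18 had differences of 0.71 ± 0.44 for kainate in mutants (adjusted p = 0.608), 0.77 ± 0.44 for genotype after kainate (adjusted p = 0.550) and 0.80 ± 0.62 for the interaction (adjusted p = 0.973), which became 0.13, 0.19 and 0.21 without mutant kainate replicate 3. The other Pcdh18 probe set lay below the filter, at 2.65 to 2.84 over the 12 arrays. Pcdh11x, an X-linked protocadherin, read 6.44, 6.41 and 6.36 in mutant saline, against 6.28, 6.21 and 6.28 in control saline. This difference of 0.15 ± 0.11 was without overlap and did not pass (adjusted p = 0.706).

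Among the cadherins, which hold neighbouring cells together, Cdh18 read higher in mutant mice without a call. It read 4.59, 5.01 and 4.71 in mutant saline, against 4.50, 4.34 and 4.49 in control saline, a difference of 0.33 ± 0.11 (adjusted p = 0.385) with no overlap. Averaged over treatments it was 0.22 ± 0.08 (adjusted p = 0.247), with 0.02 in replicate 1 and 0.33 among replicates 2 and 3. The other Cdh18 probe set lay below the filter, at 3.11 to 3.29 over the 12 arrays. Cdh8 averaged 6.89 ± 0.80 in mutant kainate, 7.54 ± 0.34 in mutant saline, 7.55 ± 0.20 in control kainate and 7.65 ± 0.04 in control saline, and Cdh11 5.89 ± 1.38, 6.63 ± 0.37, 6.73 ± 0.14 and 6.84 ± 0.05. In both, mutant kainate replicate 3 was the lowest of the 12 arrays. Kainate minus saline for Cdh11 in mutants was -0.74 ± 0.54 (adjusted p = 0.641), and 0.03 without that array. Cdh24 stayed near the filter, at 2.92 to 4.84.

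Lrrn3, a leucine-rich repeat membrane protein of neurons, read 4.15, 4.21 and 4.13 in mutant saline, against 4.08, 3.99 and 4.07 in control saline, a difference of 0.12 ± 0.06 (adjusted p = 0.487). Lrrtm4 differed by 0.13 ± 0.06 in the same comparison (adjusted p = 0.427). Cntn6, a contactin anchored to the neuronal membrane, averaged 4.02 ± 0.28 in mutant kainate, 3.95 ± 0.08 in mutant saline, 3.97 ± 0.20 in control kainate and 3.91 ± 0.02 in control saline. It passed the filter on exactly 3 arrays.

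Over all members, genotype after saline left 4 higher in mutants without overlap (Cdh18, Lrrn3, Lrrtm4 and Pcdh11x) and 4 lower (Slitrk4, Lrrtm2 and both probe sets of Pcdhb17). The backgrounds were 29.0% higher and 5.11% lower. The medians of whole arrays were also higher in mutant saline than in control saline, and their part in the 4 rises was not tested. After kainate 0 were higher (background 2.43%) and 3 lower (background 3.78%), the lower ones being both probe sets of Pcdh9 and Slitrk5 by 171226_s_at at -0.72 ± 0.39 (adjusted p = 0.550), which was -0.16 without mutant kainate replicate 3. Averaged over treatments, 6 arrays against 6, 0 were higher and 0 lower (backgrounds 0.339% each). The astrocyte gene Gfap differed by 1.41 ± 0.49 for genotype after saline without passing (adjusted p = 0.385). The other astrocyte markers above the filter did not share this rise, with Pla2g7 at -0.09, Slc1a2 at -0.07 and Apoe at 0.01. The part of Gfap in the members' differences was not tested. The summed level of the 4 astrocyte markers was 25.4 to 28.8 in mutant kainate, 25.5 to 27.7 in mutant saline, 24.2 to 30.0 in control kainate and 24.7 to 25.9 in control saline.

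The other 26 member probe sets did not pass the filter, and 19 genes had no probe set above it. These were the guidance ligands Sema3d and Sema4g, the receptors Epha1, Epha4, Plxna2, Plxnb1, Robo1 and Robo2, and the organisers Nlgn2 and Nrxn2. Also among them were the contactin genes Cntn1 and Cntn2, the contactin-associated gene Cntnap2, and Lrrn4 and Lrrn4cl, grouped by their symbols. The rest were the cadherins Cdh7 and Cdh13, and the beta protocadherins Pcdhb7 and Pcdhb11. Nrxn2 came closest to the filter, with 4.36 and 4.04 on mutant kainate replicates 2 and 3 and 3.62 to 3.75 on the other arrays. A dim probe set says nothing firm about its gene, because many on this array were designed from expressed sequence tags. Tests without the filter, which held all 54 members, called 0 in each comparison.

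Ligands, co-receptors, effectors and scaffolds that work with the members also gave no call. Of 161 listed genes, not all of them on the array, 32 were above the filter. Of the 32, 0 passed higher and 0 lower in each of the 7 comparisons with limma. An unadjusted p under 0.05 was reached by 1 of 32 in both the control mice's kainate comparison and the averaged one. This was Enah, which promotes actin filament growth in growth cones, with differences of 0.23 ± 0.07 and 0.16 ± 0.05 (adjusted p = 1 and 0.349). In the other 5 comparisons 0 reached it. The median difference of the 32 was -0.20 for kainate in mutants and -0.34 for genotype after kainate, where the members had -0.32 and -0.42. On mutant kainate replicate 3 the summed level of the 21 other synaptic adhesion genes was 129 against 140 to 147 on the other 11 arrays. The ephrins Efna3 and Efna5 were the 2 of 8 listed ephrins above the filter, and of 9 cadherin-binding catenins and 17 netrin pathway genes 0 were.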

How the data were processed

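The deposited table holds log2 values made by the authors with GCRMA in R 2.4.1, per the submitters' processing notes, 1 value per probe set and array. GCRMA adjusts background by probe sequence, which can understate differences of dim probe sets, and its effect was not measured here. Each array pools 3 animals, and p-values measure the spread between pools.

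The 66 control probe sets were left out, and 3541 of 11868 probe sets reaching log2 4 on 3 or more arrays were tested. Symbols came from the platform annotation, and all 54 members matched the RefSeq gene table of GRCm38.p6. In R 4.3.3, limma 3.58.1 fitted 4 group means to the 12 arrays with 8 residual degrees of freedom, default eBayes, and Benjamini-Hochberg adjustment over the 3541 probe sets. Errors on differences are standard errors. The fit was also run on simulated data with independent normal noise and no replicate or array effect. That run therefore does not cover such effects in these arrays.

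The members, lists, alternatives and the naming rule were chosen with earlier results of these data known. Differences are named for members whose groups do not overlap, for the largest rises and falls, and for other probe sets of those genes. Same-numbered arrays deviated together at correlations of 0.383 to 0.627 for kainate in control mice and 0.470 to 0.855 for genotype after saline. The values were 0.190 to 0.578 for genotype after kainate and -0.0779 to 0.479 for kainate in mutants. The numbers come from the titles. Arrays of unlike number were not correlated, and a split of replicate 1 from the others can enter these values. Whether the numbers mark pairs was therefore not tested. Unless a block is named, the errors and p-values come from the fit without one. They therefore include differences between replicate numbers. Alternatives were no filter, a filter at log2 5, renewed quantile normalization, blocks, fewer arrays and an intensity trend.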

Additional observations from a re-analysis of the deposited data

How the results depend on the processing

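Each of the 7 counts of called members, 0 throughout, was recomputed under up to 20 alternatives, and 135 of 137 recomputed counts were 0. Leaving out single arrays gave 0 to 1 called members for kainate in mutant mice and 0 to 1 for kainate averaged over the genotypes. The 1 was Epha5 in both cases, without mutant kainate replicate 1, at -1.32 and -0.93. With the replicate block 0 members were called in each comparison and no other call changed, and the lowest adjusted p of a member was 0.269. Of 740 recomputed differences of named members 734 kept their direction and their side of the threshold. The sign turned in 4, all for kainate in mutant mice: Pcdh9 by 166821_r_at at 0.00205 and Cdh11 at 0.0136 with replicate 3 of both kainate groups left out and replicate 1 against 2 and 3 as a block, Cdh11 at 0.0336 without mutant kainate replicate 3 (range -1.28 to 0.0336 when single arrays were left out), and Lrrtm4 at 0.0698 after renewed quantile normalization. The cause was not tested. Signal near the filter limits Cntn6, Lrrn3, Cdh24, Cdh18 and Plxnc1, and 3 arrays per group limit all differences.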
